A study of Homo sapiens with 6 samples.

Results

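The genes described here are the ERBB receptors, which are EGFR, ERBB2, ERBB3 and ERBB4, and the EGF-like ligands AREG, EREG, TGFA, HBEGF, BTC and NRG1. These 10 genes were found by symbol among the 60649 gene rows of the count table, after the identifiers were matched to GENCODE release 44 without their version, and 9 of them passed the filter on low counts. The cells were OVCAR5, an established human ovarian cancer line of epithelial type. One group carried METTL3, the catalytic subunit of the m6A RNA methyltransferase complex, delivered by a lentiviral pCDH vector, and the control group carried the empty vector. Both groups were selected with puromycin as stable lines and grown in RPMI-1640 with serum, and no other treatment is named for them. There were 3 libraries in each group. The labels call the control cells parental in one place and empty-vector cells in another, and neither they nor the methods say whether replicates came from separate cultures, so p-values measure only the spread between these libraries. Neither source says whether a line was 1 clone or which promoter drove METTL3.

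The ERBB receptors are membrane tyrosine kinases that pair up when a ligand binds and then signal through RAS-MAPK and PI3K-AKT. EGFR binds EGF, amphiregulin (AREG), epiregulin (EREG), TGF-alpha (TGFA), heparin-binding EGF-like growth factor (HBEGF) and betacellulin (BTC), whereas neuregulins such as NRG1 bind ERBB3 and ERBB4. ERBB2 has no known soluble ligand and acts as a partner of the others, and the kinase of ERBB3 is largely impaired. The ligands are made as membrane-bound precursors that proteases release, and in epithelial cancers they often act on the cells that make them.

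EGFR is the most abundant receptor by counts, and AREG and EREG lie next to each other on chromosome 4. HBEGF is the only ligand tested among these genes that was lower with METTL3 in replicates 2 and 3 of each group. The 250 bases upstream of the first RefSeq start are shown for EGFR, AREG, EREG and HBEGF. They are read 5′ to 3′ on the gene's own strand in GRCh38.p14, with matches in capitals to the GC box (GGGCGG or CCGCCC), the TATA box (TATAAA or TTTATA), the cAMP response element (TGACGTCA), the AP-1 site (TGAGTCA or TGACTCA) and the TEAD site (GGAATG or CATTCC). The windows are chr7:55018767-55019016 on the forward strand for EGFR, chr4:74444886-74445135 and chr4:74364895-74365144 on the forward strand for AREG and EREG, and chr5:140346604-140346853 on the reverse strand for HBEGF.
EGFR: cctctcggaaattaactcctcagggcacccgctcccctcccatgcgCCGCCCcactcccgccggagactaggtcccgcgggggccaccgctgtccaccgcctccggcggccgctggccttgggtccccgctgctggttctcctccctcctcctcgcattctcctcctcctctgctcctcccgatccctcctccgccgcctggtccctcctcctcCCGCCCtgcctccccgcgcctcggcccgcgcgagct
AREG: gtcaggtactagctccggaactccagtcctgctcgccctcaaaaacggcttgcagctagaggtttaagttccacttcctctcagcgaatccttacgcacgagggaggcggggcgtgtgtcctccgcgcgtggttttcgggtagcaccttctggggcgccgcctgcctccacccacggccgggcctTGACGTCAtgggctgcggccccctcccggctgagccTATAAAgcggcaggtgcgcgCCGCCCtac
EREG: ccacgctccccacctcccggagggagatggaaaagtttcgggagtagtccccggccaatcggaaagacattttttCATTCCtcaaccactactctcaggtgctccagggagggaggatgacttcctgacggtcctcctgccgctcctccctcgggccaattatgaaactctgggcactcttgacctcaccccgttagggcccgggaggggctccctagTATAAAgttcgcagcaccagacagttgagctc
HBEGF: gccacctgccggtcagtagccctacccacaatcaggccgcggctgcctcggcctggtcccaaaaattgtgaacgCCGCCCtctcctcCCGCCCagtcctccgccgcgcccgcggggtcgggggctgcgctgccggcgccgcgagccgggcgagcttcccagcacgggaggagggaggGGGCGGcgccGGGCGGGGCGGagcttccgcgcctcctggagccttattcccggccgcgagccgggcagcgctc

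AREG and EREG each held a TATA box close to the start, at 29 and 32 bases before it, and this motif was in 10.7% of all 35116 RefSeq promoters over the same length. AREG also held the cAMP response element at 65 bases before the start, a motif found in 1.65% of promoters, and a GC box at 9 bases. The EGFR window shown had no TATA box and 2 GC boxes. EGFR has a second RefSeq start further into the gene, and its window (chr7:55109589-55109838, not shown) held no GC box but 2 TATA boxes, at 146 and 36 bases, 2 AP-1 sites, at 232 and 136 bases, and a TEAD site at 114 bases. The counts are per gene and do not tell the 2 starts apart. The HBEGF window had 5 GC boxes, and the ones at 63 and 58 bases overlap by a letter. GC boxes were in 42.6% of promoters. EREG held a TEAD site at 175 bases, a motif in 11.9% of promoters. None of the 4 windows printed held an AP-1 site, which was in 4.2% of promoters. The matches describe letters only and say nothing of which factors were bound in these cells.

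EREG spans positions 74365145 to 74388749 of chromosome 4 in GRCh38, AREG spans 74445136 to 74455005, and both are on the forward strand with 56.4 kb between them. BTC is on the reverse strand, and its nearer end, which is its 3′ end, lies 290 kb past AREG. EPGN, another EGF-like ligand gene, lies 48.4 kb on the other side of EREG. EGFR is on chromosome 7 from 55019017 to 55211628, ERBB2 on chromosome 17 from 39687914 to 39730426, ERBB3 on chromosome 12 from 56076799 to 56103505 and ERBB4 on chromosome 2 from 211375717 to 212538841. TGFA is on chromosome 2 from 70447284 to 70554193, HBEGF on chromosome 5 from 140332843 to 140346603 and NRG1 on chromosome 8 from 31639222 to 32855666. All 10 are annotated as protein-coding, and the counts are totals over the exons of each gene.

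Total counts were from 96633925 to 125463386 a library. METTL3 itself, which checks the labels, was at 152, 166 and 175 CPM (counts scaled to library size with TMM factors) in the replicates 1, 2 and 3 that overexpressed it and at 80.6, 68.6 and 71.6 CPM in the vector controls, a log2 fold change of 1.16 (SE 0.117, adjusted p = 0.072 with edgeR) on all 6 libraries and 1.28 (adjusted p = 1.59e-08) in replicates 2 and 3. All values below are listed in the order of replicates 1, 2 and 3. The library preparation stands in doubt, since the paper describes one kit with single-end reads and the labels a stranded kit with paired-end reads, and from 67.6% to 70.5% of counts between 1 and 20 were even, as when both mates are counted. Replicate 1 of both groups stood apart from replicates 2 and 3, with a chi-square per degree of freedom of 99.4 to 220.5 against replicates of its own group, where replicates 2 and 3 gave 11.4 and 11.9. The tested members and the counts of genes passing are therefore given on all 6 libraries and on replicates 2 and 3 of each group. For some other genes the fold change is given in replicates 2 and 3 only. With edgeR and the filter on low counts, 0 genes passed on all 6 libraries. The 6 epithelial markers EPCAM, CDH1, KRT7, KRT8, KRT18 and KRT19 were present in every library, summing to between 7506 and 8446 CPM with METTL3 and between 6018 and 9492 CPM with the vector. Of 10 markers of leukocytes, fibroblasts and endothelium, the leukocyte genes PTPRC, CD3E and CD68 had at most 8 counts in any library, and the summed level of the 10 was from 9.45 to 20.7 CPM, most of it COL1A1.

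The question for these genes was whether METTL3 overexpression went with a different supply of ERBB receptors or of their ligands. On all 6 libraries the 3 abundant receptors were higher in every METTL3-overexpressing library than in any vector control, by 1.35- to 1.49-fold. Of all genes tested, 8.47% were likewise higher without overlap. None of the 5 ligands tested separated the groups. NRG1, not tested because of its low counts, was lower in every METTL3-overexpressing library. None of the 9 members passed an adjusted p-value of 0.05 there in edgeR's quasi-likelihood test, in which 0% of the 22038 genes tested passed. In replicates 2 and 3 of each group, EGFR, ERBB2, ERBB3, AREG, EREG and TGFA rose and HBEGF fell, where 6.66% of all genes rose and 8.59% fell. In bulk RNA, more cells of a kind and more RNA per cell cannot be told apart. The plot of members by library shows the 3 receptors that separate the groups and the 5 ligands tested, whose groups overlap once replicate 1 is included. The size of the receptor differences varied with replicate 1 too. For ERBB2 the log2 fold change was 0.43 on all 6 libraries and 0.26 in replicates 2 and 3.

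**Figure D1:**
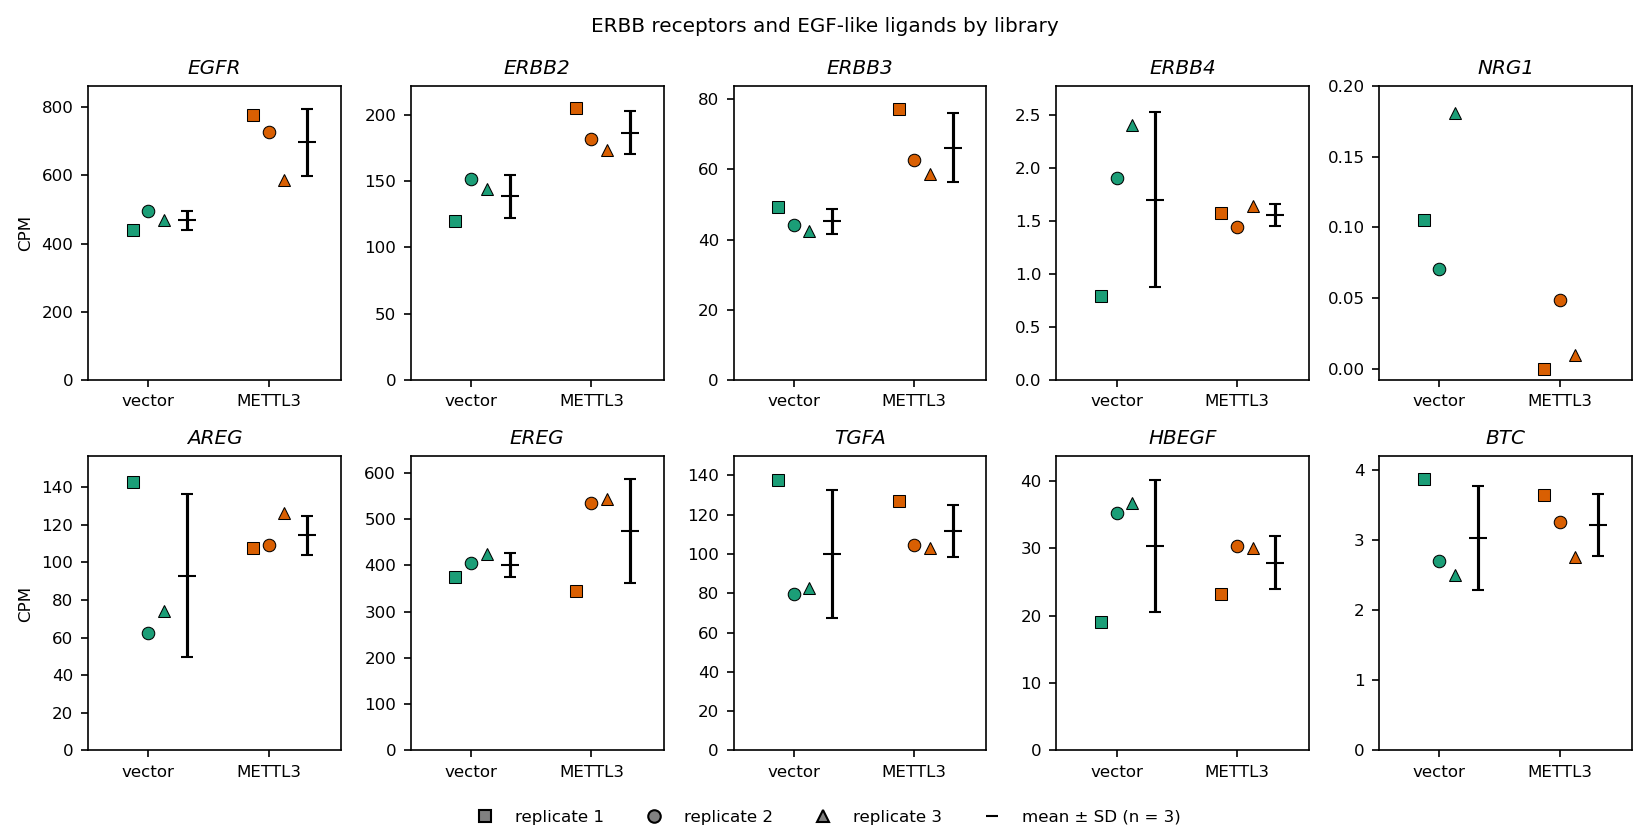
CPM of the 10 members in each vector control (green) and METTL3-overexpressing (orange) library, with symbols for the replicate numbers and bars for the mean ± SD of 3 libraries (none for NRG1); axes differ between panels. EGFR, ERBB2 and ERBB3 are higher in all 3 METTL3-overexpressing libraries, as 8.47% of all genes tested are. NRG1, at very low counts, is lower in all 3. AREG and TGFA are highest in vector control replicate 1.

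EGFR, the receptor for most of these ligands, was at 778, 726 and 587 CPM with METTL3 and at 440, 496 and 470 CPM with the vector. The lowest METTL3-overexpressing library lay above the highest control. EGFR averaged 697 ± 98.8 CPM with METTL3 against 469 ± 28.2 CPM with the vector (SD, n = 3 each). Its fitted log2 difference was 0.57 (SE 0.14, unadjusted p = 0.00319 and adjusted p = 0.40 with edgeR over all genes). In replicates 2 and 3 the log2 fold change was 0.44 (SE 0.0884, adjusted p = 0.00852 with edgeR). The same-numbered libraries differed by 0.82, 0.55 and 0.32 on the log2 scale, so the size varied between the pairs while the sign did not.

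ERBB2, the ligandless partner receptor also known as HER2, was at 205, 182 and 173 CPM with METTL3 and at 120, 152 and 144 CPM with the vector. Again the groups did not overlap. ERBB2 averaged 187 ± 16.5 CPM with METTL3 against 138 ± 16.4 CPM with the vector (SD, n = 3 each). Its fitted log2 difference was 0.43 (SE 0.131, unadjusted p = 0.0104 and adjusted p = 0.48 with edgeR). In replicates 2 and 3 it was 0.26 (SE 0.054, adjusted p = 0.00385 with edgeR). Vector control replicate 1 was the lowest of the controls and METTL3-overexpressing replicate 1 the highest library. Of the exonic bases of ERBB2, 6.93% lie opposite exons of MIEN1 and PGAP3, and without a stated strand setting those reads cannot be told apart.

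ERBB3, the neuregulin receptor with an impaired kinase, was at 77.3, 62.7 and 58.6 CPM with METTL3 and at 49.3, 44.1 and 42.4 CPM with the vector, without overlap. The log2 fold change was 0.55 (SE 0.136, unadjusted p = 0.00339 and adjusted p = 0.41 with edgeR) on all 6 libraries. It was 0.49 (SE 0.0593, adjusted p = 5.96e-05 with edgeR) in replicates 2 and 3, and the pairs differed by 0.65, 0.51 and 0.47 on the log2 scale. Of the receptors, ERBB3 thus changed least between the 2 sets of libraries in absolute terms.

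ERBB4, a neuregulin receptor with an active kinase, was scarcely expressed. It was at 1.58, 1.44 and 1.65 CPM with METTL3 and at 0.791, 1.91 and 2.41 CPM with the vector, so the vector controls spread on both sides of the METTL3-overexpressing libraries. The log2 fold change was -0.13 (SE 0.364, adjusted p = 0.93 with edgeR) on all 6 libraries and -0.49 (SE 0.183, adjusted p = 0.094) in replicates 2 and 3.

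For single receptors the exact permutation test on CPM gave p = 0.1 (two-sided) for EGFR, ERBB2 and ERBB3, which is the smallest p that 3 libraries against 3 allow. The groups did not overlap for these 3 of the 9 members tested, all of them higher, where 8.47% of all genes tested did not overlap and were higher with METTL3. The same 3 receptors, and no ligand tested, lay under 0.05 before adjustment, as 8.3% of genes did (4.4% as higher and 3.91% as lower). Non-overlap and this p come from the same libraries.

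AREG, a ligand of EGFR, was at 108, 109 and 126 CPM with METTL3 and at 143, 62.2 and 73.9 CPM with the vector. Vector control replicate 1 was the highest of all 6 libraries, while the other controls were the lowest. The log2 fold change was 0.30 (SE 0.281, adjusted p = 0.76 with edgeR) on all 6 libraries and 0.79 (SE 0.0911, adjusted p = 0.000261) in replicates 2 and 3. Leaving out vector control replicate 1 alone gave 0.75 (adjusted p = 0.0343 with edgeR), and AREG was then the only member to pass, as 1.62% of genes did and 0.676% did as higher. Over all alternatives the adjusted p of AREG ran from 1.05e-17 to 0.94. The replicate 1 libraries differed by -0.41 on the log2 scale and the other pairs by 0.81 and 0.78.

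EREG, which binds EGFR and ERBB4, was at 344.5, 535 and 544 CPM with METTL3 and at 374, 405 and 425.5 CPM with the vector. Here METTL3-overexpressing replicate 1 was the lowest library, and the other METTL3-overexpressing libraries were the highest. The log2 fold change was 0.24 (SE 0.183, adjusted p = 0.71 with edgeR) on all 6 libraries. In replicates 2 and 3 it was 0.38 (SE 0.0518, adjusted p = 0.000169).

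TGFA, another EGFR ligand, was at 127, 105 and 103 CPM with METTL3 and at 138, 79.9 and 82.9 CPM with the vector. Both replicate 1 libraries were higher than every other library. The log2 fold change was 0.16 (SE 0.214, adjusted p = 0.84 with edgeR) on all 6 libraries and 0.35 (SE 0.0535, adjusted p = 0.00038) in replicates 2 and 3.

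HBEGF, a ligand of EGFR and ERBB4 that binds heparan sulfate, went the other way in replicates 2 and 3. It was at 23.3, 30.3 and 30.0 CPM with METTL3 and at 19.0, 35.2 and 36.6 CPM with the vector, with vector control replicate 1 the lowest of all. The log2 fold change was -0.12 (SE 0.242, adjusted p = 0.89 with edgeR) on all 6 libraries and -0.26 (SE 0.0612, adjusted p = 0.0107) in replicates 2 and 3. The replicate 1 pair had the other sign, at 0.29 on the log2 scale.

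BTC, also a ligand of EGFR and ERBB4, was low throughout, at 3.64, 3.27 and 2.75 CPM with METTL3 and 3.88, 2.70 and 2.51 CPM with the vector. Its log2 fold change was 0.09 (SE 0.224, adjusted p = 0.92 with edgeR) on all 6 libraries and 0.21 (SE 0.149, adjusted p = 0.41) in replicates 2 and 3. NRG1, a ligand of ERBB3 and ERBB4, was near the limit of detection, with 0, 6 and 1 counts with METTL3 and 10, 8 and 20 counts with the vector. These counts did not overlap, and they summed to 7 with METTL3 and 38 with the vector. The 0 counts in METTL3-overexpressing replicate 1 allow a level of up to 0.0275 CPM, for counting error only and if counts are independent. The limit is higher if both mates were counted. NRG1 did not pass the filter on low counts and has no fold change in the main edgeR fit on all 6 libraries. It was fitted there by DESeq2 and by edgeR without the filter. In both its unadjusted p lay under 0.05, but edgeR did not call it after adjustment and DESeq2 gave it no adjusted p.

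**Figure D2:**
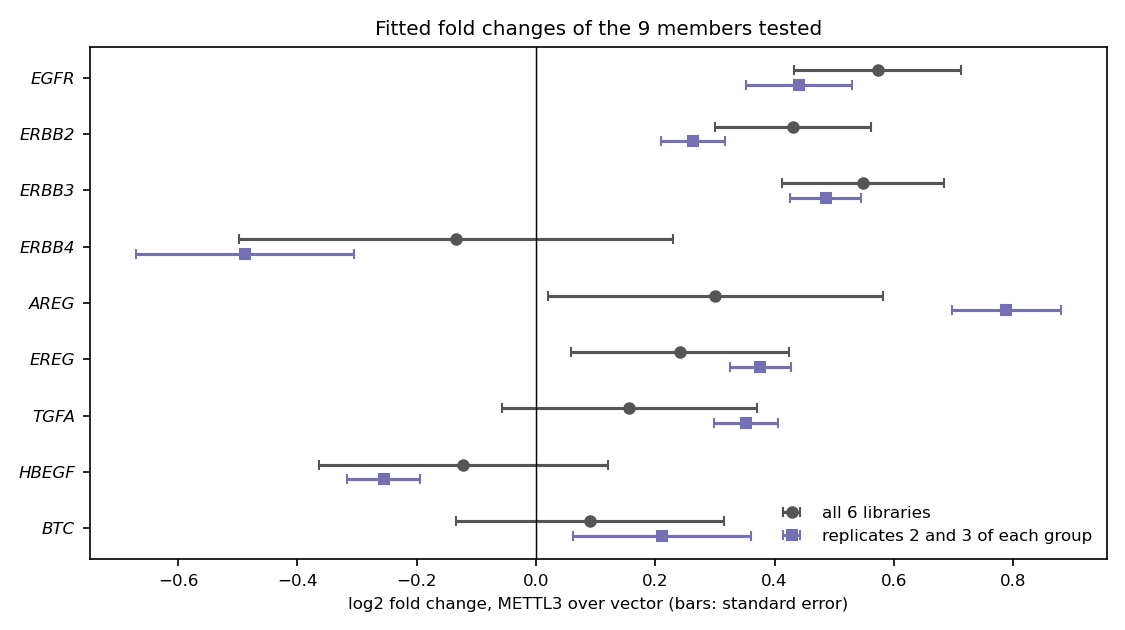
Log2 fold change (METTL3 over vector) with its standard error for the 9 members tested, on all 6 libraries (circles) and on replicates 2 and 3 of each group (squares). EGFR, ERBB2 and ERBB3 lie between 0.26 and 0.57 in both, with ERBB2 moving from 0.43 to 0.26, and AREG moves from 0.30 to 0.79.

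Taking replicates 2 and 3 of each group, 7 of the 9 members passed, where 15.2% of the 22046 genes tested did. Of these 6 rose, as 6.66% of genes did, and 1 fell, as 8.59% did. Before adjustment 8 members lay under 0.05, as 27.1% of genes did. The median log2 fold change of the 9 members was 0.35 against -0.0033 over all genes tested, and on all 6 libraries it was 0.24 against -0.018. Only AREG passed with a fold change of at least 1.5 (4.85% of genes did), at 1.73-fold. With the replicate number as a block in replicates 2 and 3, 8 members passed (24.7% of genes), ERBB4 being added as lower, and the calls over all genes went from 3362 to 5450. On all 6 libraries DESeq2, the tool named in the methods, called EGFR higher (adjusted p = 0.0484) and no other member, where 1.19% of genes were called and 0.827% as higher. For METTL3 it gave a log2 fold change of 1.18 on all 6 libraries and 1.29 in replicates 2 and 3. The paper's supplement lists 1.29 for METTL3 and does not name the libraries used. When genes of low count were kept, EGFR and ERBB3 were called higher by edgeR, where 1.3% of genes were called (0.782% as higher and 0.517% as lower). Over all alternatives the adjusted p of EGFR ran from 0.00852 to 0.90. The calls in replicates 2 and 3 rest on 2 libraries a group.

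Markers of epithelial identity moved with some members. EPCAM was at 437.5, 414 and 432 CPM with METTL3 and at 483, 247 and 271 CPM with the vector, so it too was highest in vector control replicate 1, as AREG and TGFA were. CDH1, which encodes E-cadherin, was at 439, 358 and 346 CPM with METTL3 and at 201, 184 and 189 CPM with the vector. CDH1 separated the groups as EGFR, ERBB2 and ERBB3 did, and it was the only one of the 6 epithelial markers to do so. EPCAM, KRT7, KRT8, KRT18 and KRT19 overlapped between the groups, and each was highest in vector control replicate 1. All 6 epithelial markers rose in replicates 2 and 3, as 6.66% of all genes did, with a median log2 fold change of 0.51. On all 6 libraries 0 of these markers passed with edgeR (1 at an unadjusted p under 0.05, median 0.23), where DESeq2 called CDH1. Their part in the ERBB and ligand values was not tested.

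Levels between genes were compared per length as TPM, which divide counts by the longest annotated transcript and then by the library sum. By mean TPM over the 6 libraries the order was EREG at 291, AREG at 255.5, EGFR at 181, ERBB2 at 102, TGFA at 78.5, HBEGF at 37.9, ERBB3 at 27.4, BTC at 3.60, ERBB4 at 0.416 and NRG1 at 0.0167. Neighbours from EREG down to TGFA overlapped in their ranges over libraries, as did HBEGF and ERBB3. Within every library, however, AREG was above EGFR and EGFR above ERBB2. The closest of these was AREG over EGFR in vector control replicate 2, at 157.3 against 156.2 TPM. The order of EREG and AREG, of ERBB2 and TGFA, and of HBEGF and ERBB3 changed between libraries. TGFA, at 60.5 TPM or more, and HBEGF, at 47.6 TPM or less, did not overlap. The lengths used matter, and with the union of all exons TGFA (94.5 TPM) came before ERBB2 (69.7 TPM) while the rest kept their order.

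**Figure D3:**
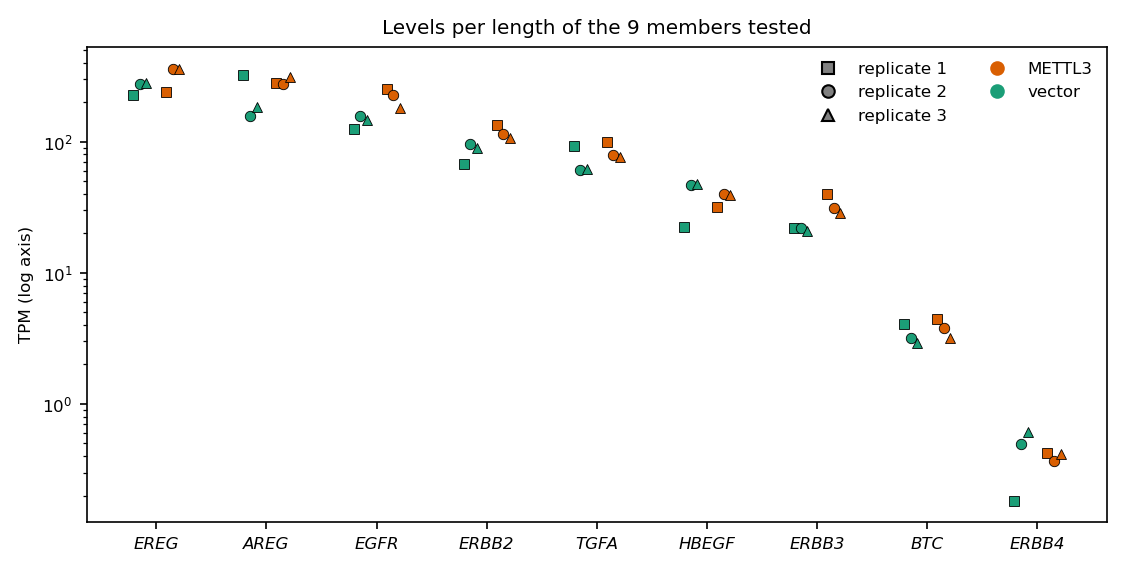
TPM on a log axis of the 9 members tested, ordered by mean, in vector control (green) and METTL3-overexpressing (orange) libraries. EREG, AREG and EGFR lie above 100 TPM in every library, ERBB4 below 1 TPM.

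The receptor transcripts were dominated by EGFR, which held from 56.8% to 61.0% of the summed receptor TPM in the 6 libraries. ERBB2 held from 30.6% to 34.9%, ERBB3 from 8.0% to 10.3% and ERBB4 at most 0.238%. The makeup of the receptors therefore stayed within narrow ranges in both groups, while their summed level was 428, 373 and 318 TPM with METTL3 and 214, 275 and 256 TPM with the vector. Among the 6 ligands, EREG held from 33.8% to 50.6% and AREG from 29.1% to 48.2% of the summed TPM. The ligand sum was 659, 755 and 794 TPM with METTL3 and 669, 541 and 579 TPM with the vector, with vector control replicate 1 above the lowest METTL3-overexpressing library.

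The 5 other EGF-like ligand genes, EGF, EPGN, NRG2, NRG3 and NRG4, all had negative log2 fold changes on all 6 libraries, with a median of -0.18. With edgeR 0 passed there (2 at an unadjusted p under 0.05). Of all genes tested 0% passed, and 8.3% lay under 0.05 before adjustment (3.91% as lower). DESeq2 on all 6 libraries likewise called 0 of them, and over all 96 genes of the 6 pathway lists it called MUC4 and DUSP4. Of all genes, DESeq2 called 1.19% there. In replicates 2 and 3 edgeR called EGF, NRG2 and NRG3 lower, where 8.59% of all genes were. EGF, the ligand for which the family is named, was at 28.0, 23.3 and 24.3 CPM with METTL3 and at 28.8, 28.8 and 27.9 CPM with the vector, and it fell in replicates 2 and 3 (log2 fold change -0.26, adjusted p = 0.0146 with edgeR). NRG2, which binds ERBB3 and ERBB4, was at 3.21, 3.45 and 2.82 CPM with METTL3 and at 3.16, 5.42 and 5.69 CPM with the vector. Its log2 fold change was -0.59 on all 6 libraries (adjusted p = 0.59 with edgeR) and -0.82 in replicates 2 and 3 (adjusted p = 0.00049). NRG3, a ligand of ERBB4, was at 0.0886, 0.218 and 0.188 CPM with METTL3 and at 0.105, 0.947 and 0.688 CPM with the vector. It fell in replicates 2 and 3 (log2 fold change -2.00, adjusted p = 0.000687 with edgeR). On all 6 libraries its log2 fold change was -1.81 (adjusted p = 0.565 with edgeR). For NRG2 and NRG3 alike, vector control replicate 1 was as low as the METTL3-overexpressing libraries. NRG4 and EPGN did not pass in either set, with log2 fold changes of -0.15 each on all 6 libraries.

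Of 12 genes that release the ligands or move their proteases, 0 passed on all 6 libraries (1 at an unadjusted p under 0.05), and 4 passed in replicates 2 and 3, 1 higher and 3 lower. Over all genes tested 15.2% passed there, 6.66% as higher and 8.59% as lower. RHBDL2, a rhomboid protease, rose there (log2 fold change 0.36, adjusted p = 0.00917 with edgeR). ADAM9, a metalloprotease, was at 1235, 1338 and 1327 CPM with METTL3 and at 1583, 1548 and 1603 CPM with the vector, without overlap, and it fell in replicates 2 and 3 (log2 fold change -0.24, adjusted p = 0.00372). FRMD8, which stabilises the carrier of the sheddase ADAM17, fell by 0.19 on the log2 scale there (adjusted p = 0.0237 with edgeR). Its log2 fold change was -0.063 on all 6 libraries, and the replicate 1 libraries differed by 0.24 with the other sign. ADAM12, named after its values were seen because it lies under 1 CPM, fell as well (log2 fold change -1.05, adjusted p = 0.00676).

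Of 11 partners and chaperones of the receptors, 0 passed on all 6 libraries in edgeR's test (2 at an unadjusted p under 0.05), and 2 rose and 3 fell in replicates 2 and 3. There 6.66% of all genes rose and 8.59% fell. MUC4, a membrane mucin that binds ERBB2, was at 418.5, 170 and 130 CPM with METTL3 and at 68.4, 60.0 and 57.1 CPM with the vector, without overlap. Its log2 fold change was 1.96 (SE 0.392, unadjusted p = 0.000937 and adjusted p = 0.34 with edgeR) on all 6 libraries, and 1.36 (SE 0.125, adjusted p = 0.000749) in replicates 2 and 3. MUC1, a mucin reported to associate with EGFR, was at 148, 104.5 and 90.5 CPM against 27.0, 78.7 and 71.9 CPM, with a log2 fold change of 0.95 (adjusted p = 0.565) on all 6 libraries and 0.37 (adjusted p = 0.00284) in replicates 2 and 3. CD44, a hyaluronan receptor, and AXL, a receptor tyrosine kinase, fell in replicates 2 and 3 by 0.39 and 0.22 on the log2 scale (adjusted p = 0.000114 and 0.0139), as did CD82 by 0.19 (adjusted p = 0.0243), the last named after its values were seen. Both CD44 and AXL were lowest in the replicate 1 libraries, at 532 and 726 CPM for CD44 against 957 to 1291 CPM in the others. For CD82 the log2 fold change was -0.034 on all 6 libraries, and the replicate 1 libraries differed by 0.37 with the other sign. DESeq2 called MUC4 alone on all 6 libraries.

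Of 20 genes that inhibit the receptors or act in their turnover, 0 passed on all 6 libraries (4 at an unadjusted p under 0.05), and 4 rose and 1 fell in replicates 2 and 3, where 6.66% of all genes rose and 8.59% fell. CBLC, a ubiquitin ligase of the CBL family, was at 28.3, 21.4 and 21.6 CPM with METTL3 and at 22.7, 11.7 and 11.96 CPM with the vector, and rose there (log2 fold change 0.86, adjusted p = 2.55e-06 with edgeR). The receptor phosphatases PTPRK and PTPRJ were higher in all 3 METTL3-overexpressing libraries than in any control, with log2 fold changes of 0.41 and 0.34 on all 6 libraries (adjusted p = 0.49 and 0.55). In replicates 2 and 3 they rose by 0.31 and 0.25 on the log2 scale (adjusted p = 0.00202 and 0.00744). UBASH3B, which slows receptor breakdown, fell there by 0.25 (adjusted p = 0.00701), and HGS, an endosomal sorting protein named after its values were seen, rose by 0.18 (adjusted p = 0.0349).

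Adaptors and early kinases differed little. Of 30 genes, 0 passed on all 6 libraries (2 at an unadjusted p under 0.05), and 2 rose and 2 fell in replicates 2 and 3, with a median log2 fold change of -0.0074 there against -0.0033 over all genes. Over all genes tested 15.2% passed there. NCK2, an adaptor, was at 72.0, 75.4 and 75.9 CPM with METTL3 and at 45.0, 65.2 and 63.6 CPM with the vector, without overlap, and rose in replicates 2 and 3 (log2 fold change 0.23, adjusted p = 0.00868 with edgeR). STAT5B, a transcription factor, fell there by 0.24 on the log2 scale (adjusted p = 0.00869 with edgeR). Its log2 fold change was -0.12 on all 6 libraries, and the replicate 1 libraries differed by 0.18 with the other sign.

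Of 18 genes known as transcriptional outputs and feedback regulators of the pathway, 0 passed on all 6 libraries (1 at an unadjusted p under 0.05), with a median log2 fold change of -0.012 against -0.018 over all genes. In replicates 2 and 3, 10 fell and 1 rose, with a median of -0.23, where 8.59% of all genes fell and 6.66% rose. With the replicate number as a block there 14 were lower and 2 higher, against 13.4% and 11.3% of all genes. The one that rose without the block was DUSP4, a phosphatase of MAP kinases, at 109, 103 and 100.3 CPM with METTL3 and 55.9, 51.0 and 49.2 CPM with the vector. Its log2 fold change was 1.00 (SE 0.108, unadjusted p = 9.95e-06 and adjusted p = 0.0731 with edgeR) on all 6 libraries and 1.02 (adjusted p = 4.03e-08) in replicates 2 and 3, and replicate 1 gave 0.96. DESeq2 called DUSP4 on all 6 libraries.

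The outputs that fell did not do so within replicate 1. EGR1, an immediate early transcription factor, was at 34.1, 20.5 and 19.9 CPM with METTL3 and at 12.8, 29.7 and 29.2 CPM with the vector. Its log2 fold change was 0.05 (adjusted p = 0.97 with edgeR) on all 6 libraries and -0.55 (adjusted p = 4.41e-05) in replicates 2 and 3, and the replicate 1 libraries differed by 1.41. SPRY2, a feedback inhibitor of RAS-MAPK signalling, fell by 0.43 in replicates 2 and 3 (adjusted p = 0.000219) and differed by 0.13 within replicate 1. JUN, a subunit of AP-1, fell by 0.41 (adjusted p = 0.00026) and differed by 0.74 within replicate 1. The other 7 that fell, named after their values were seen, were also not lower within replicate 1. These were FOS, DUSP5, SPRY4, SPRED2, ETV4, ETV5 and EPHA2, with log2 fold changes between -0.39 and -0.23 in replicates 2 and 3.

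**Figure D4:**
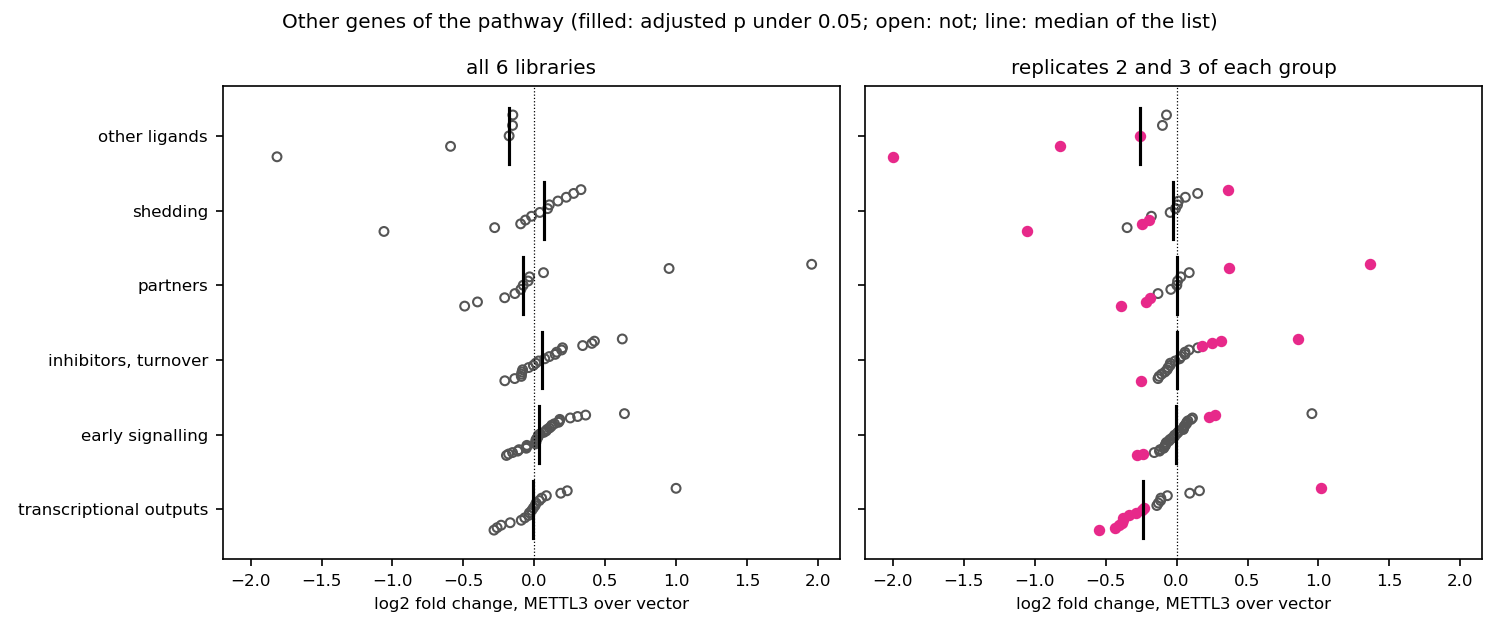
Log2 fold change (METTL3 over vector) of every tested gene on the 6 pathway lists, on all 6 libraries (left) and on replicates 2 and 3 of each group (right), with filled points for an adjusted p-value under 0.05 and a line at each list's median. No point is filled on the left, and on the right 10 of the 18 transcriptional outputs lie below 0 as filled points, with DUSP4 at 1.02. Of all genes tested, 8.59% were called lower there and 6.66% higher.

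**Figure D5:**
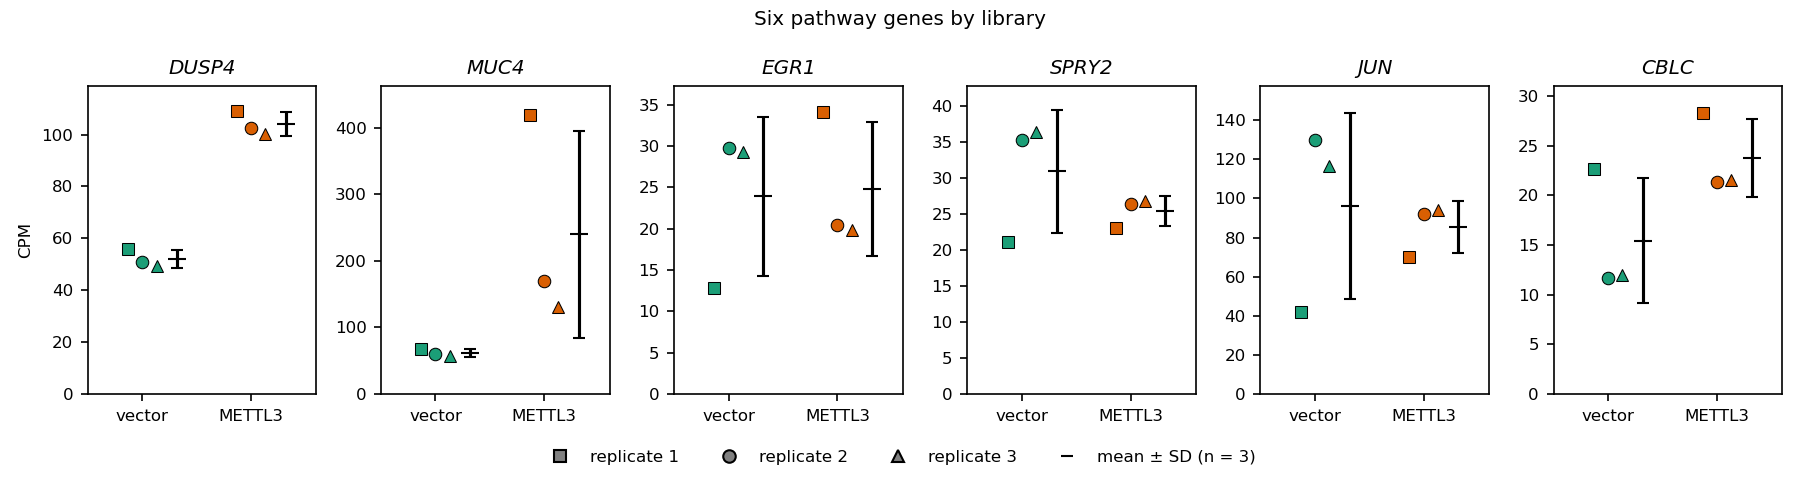
CPM of DUSP4, MUC4, EGR1, SPRY2, JUN and CBLC in each library, with symbols for the replicate numbers and bars for the mean ± SD of 3 libraries. DUSP4 and MUC4 separate the groups in all 3 pairs, whereas the order of the groups turns in replicate 1 for EGR1, SPRY2 and JUN.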

How the data were processed

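The data are polyadenylated RNA from 6 OVCAR5 libraries. Reads were mapped by the authors with hisat2 (hg38), and the deposited values are raw counts per gene from Subread's featureCounts, with fastp named in the labels. Versions, annotation release, strand setting and the treatment of multimapping reads are not given in the sources used here.

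Genes passing filterByExpr (22038) were scaled by TMM and compared with glmQLFit (robust) and glmQLFTest of edgeR 4.0.16 in R 4.3.3, with Benjamini-Hochberg adjustment over all genes and a threshold of 0.05. Standard errors (SE) were derived as the absolute log2 difference divided by the root of the F statistic. CPM carry the TMM factors, and TPM were computed from the counts and the longest transcript of GENCODE 44, which named 60463 rows. DESeq2 1.42.0, other size factors, other filters, counts divided by 2, a replicate block, each library left out, and replicates 2 and 3 alone were alternatives. The fit was also run on simulated counts. These held no shift shared by the replicate 1 libraries, so they cannot show how the fit handles one.

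Deviations of same-numbered libraries from their group means correlated at 0.33, 0.12 and 0.17, each over 0.1, the limit set for taking the numbers as pairs. METTL3-overexpressing replicate 2 with vector control replicate 3 reached 0.21, and METTL3-overexpressing replicate 3 with vector control replicate 2 reached 0.13. For replicates 2 and 3 these values do not single out the same-numbered pairs. The differences within pairs and the replicate block rest on the numbers alone there. Members and lists were chosen with earlier results of these data known. Named genes are the members, METTL3, the 5 other ligands, and per pathway list up to 4 genes with at least 1 CPM passing in replicates 2 and 3, by size. Promoter sequences are from RefSeq, which held 8 of the members. Some genes that this rule names are not reported here.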

Additional observations from a re-analysis of the deposited data

How the results depend on the processing

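On all 6 libraries edgeR called 0 genes and 0 members, with 1830 genes under 0.05 before adjustment. DESeq2 called 225 genes, 1 member (EGFR, log2 fold change 0.58), 1 partner and 1 transcriptional output, with METTL3 at 1.18. With no low-count filter there were 560 genes and 2 members called by edgeR, EGFR (0.59) and ERBB3 (0.57), with METTL3 again at 1.18. Replicates 2 and 3 of each group gave 3362 genes and 7 members with edgeR, at 0.44 for EGFR, 0.26 for ERBB2, 0.49 for ERBB3, 0.79 for AREG, 0.38 for EREG, 0.35 for TGFA, -0.26 for HBEGF and 1.28 for METTL3. There 9 members did not overlap, as did 54.6% of all genes, and 3 other ligands, 4 shedding genes, 5 turnover genes, 5 partners, 4 early signalling genes and 11 outputs passed, as 15.2% of all genes did. DESeq2 on the same libraries gave 3095 genes and 7 members, at 0.45, 0.27, 0.49, 0.80, 0.38, 0.36, -0.25 and 1.29 in the same order. The replicate block there gave 5450 genes and 8 members, with 3, 6, 7, 6, 6 and 16 genes of the lists in the order above (an alternative chosen after seeing the data), and on all 6 libraries the block changed no call.

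Leaving out each library in turn gave from 0 to 367 genes and from 0 to 1 members, the upper values without vector control replicate 1, and from 3 to 8 members without overlap. Of all genes 40% did not overlap in the set that gave 8. AREG ranged from 0.11 to 0.75, TGFA from 0.050 to 0.46, EREG from 0.15 to 0.45, BTC from 0.0024 to 0.31 and METTL3 from 1.13 to 1.23. The highest values of AREG, TGFA and BTC came on leaving out vector control replicate 1, and that of EREG on leaving out METTL3-overexpressing replicate 1. HBEGF ranged from -0.37 to 0.057 and turned without METTL3-overexpressing replicate 1 (0.0067), vector control replicate 2 (0.020) or vector control replicate 3 (0.057), and ERBB4 ranged from -0.47 to 0.22 and turned without vector control replicate 3 (0.22). EGFR ranged from 0.51 to 0.70, ERBB2 from 0.34 to 0.53 and ERBB3 from 0.44 to 0.65. The cause of these shifts was not tested. Of 135 member values under an alternative, 113 kept their direction and side of the threshold, 18 passed it and 4 turned. Counts were fewest for NRG1, at 0 to 20 a library, and then for ERBB4, at 75 to 266. ERBB4 also spread from 0.791 to 2.41 CPM over the vector controls.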

Other observations

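The genes closest in pattern to EGFR were CABIN1, BPTF and REL, by the root mean square difference of centred log2 CPM over the 6 libraries, among 10024 genes with at least 10 CPM. The differences were 0.0563, 0.0729 and 0.0758, against a median of 0.37 over all these genes. CABIN1 was at 68.4, 63.5 and 56.5 CPM with METTL3 and at 39.7, 47.4 and 44.4 CPM with the vector. The closest to EREG, the most abundant ligand by CPM, were CYP1B1, CHN1 and TTF2, at 0.0597, 0.0654 and 0.0795 against a median of 0.29. CYP1B1 was at 135, 195 and 190 CPM with METTL3 and at 130, 151 and 152 CPM with the vector, so like EREG it was low in METTL3-overexpressing replicate 1. With 6 libraries such likeness is a description of these values.

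GGACT, a sequence within the consensus at which m6A is deposited, was counted in the longest transcript of each member, as letters and not as measured methylation. It occurred 12 times in EGFR, 5 in ERBB2, 9 in ERBB3 and 10 in ERBB4, or 1.21, 1.01, 1.44 and 0.83 times per kb. The median over 14873 tested protein-coding genes was 0.94 per kb, with quartiles of 0.59 and 1.37. Among the ligands, HBEGF had 1.70 per kb, TGFA 0.73, NRG1 0.72, EREG 0.65 and BTC 0.38, and AREG had 0 in its 1234 bases.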
